A study of Homo sapiens with 3 samples.

Results

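Polycomb repressive complex genes were examined in IMR-90 cells, a human fetal lung fibroblast line, after knockdown of SETD8. The 10 genes were EZH2, EZH1, SUZ12 and EED of the PRC2 core, the PRC2 cofactors JARID2, EPOP and PHF19, and the PRC1 subunits BMI1, RING1 and CBX2. Of these, 9 were among the 19775 genes with a probe set of their own on the arrays. They were chosen as named subunits and cofactors of the complexes, with no threshold on their values but with earlier results of these data known. SETD8, also called PR-Set7 and listed as KMT5A, is the enzyme that monomethylates lysine 20 on histone H4. Cells grown in 10% serum had been transfected for 24 h, with RNAiMAX, with SETD8 siRNA 1 (SETD8-1 in the labels), SETD8 siRNA 2 (SETD8-2) or a control siRNA (GL3), each on 1 array. No value therefore has a replicate error, no p-value is given, and the number of arrays limits the precision. The control cells were also transfected, and no untransfected culture was analysed here. The design asks how expression differs when SETD8 is knocked down, and here the question is put to the Polycomb genes and to CDKN2A, a gene they are known to repress.

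As background, Polycomb proteins keep genes silent through a pair of chromatin marks. PRC2 methylates histone H3 at lysine 27 and PRC1 attaches ubiquitin to histone H2A, and PRC1 forms with CBX subunits bind the PRC2 mark. In cultured fibroblasts both complexes are known to hold down the INK4 locus, which encodes the cell cycle inhibitors p16, ARF and p15, and EZH2 is known to be expressed mainly in dividing cells.

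The values are MAS5 signals, linear intensities per probe set, and log2 fold changes set each SETD8 siRNA over the control siRNA. Signals under a floor of 11.7 were raised to it before log2 was taken. Each gene was read from whichever of its probe sets had the highest log2 mean over the arrays, and 12307 genes reached the filter on low signal of 42.0. The 10 genes had 26 probe sets, of which 24 were annotated to the gene alone and 18 of those lay above the filter. BMI1 had no probe set of its own, because its probe set is shared with the readthrough gene COMMD3-BMI1. The other 9 genes passed the filter, EPOP only through its signals on the SETD8 siRNA arrays. As a yardstick for single genes, the size of the log2 difference between siRNA 2 and siRNA 1 was taken over all genes, and its 95th percentile was 2.21, 1.72, 1.25 and 1.14 from the lowest to the highest quartile of signal, which holds array noise together with real differences between the siRNAs.

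KMT5A signal was 431.4 with SETD8 siRNA 1 and 584.1 with SETD8 siRNA 2, against 938.9 with the control siRNA, and all 4 of its probe sets were lower with both. The log2 fold change was -1.12 and -0.68 on this probe set, and -0.64 and -0.39 over the 4. These were within the yardstick of 1.72 for its signal. In its signal quartile, 8.71% of genes were as low or lower with siRNA 1 and 14.9% with siRNA 2. All 12 fibroblast markers were above the filter, among them VIM (0.14 and 0.19 on the log2 scale, in the order siRNA 1 and siRNA 2 here and in later pairs), COL5A1 (0.53 and 0.32), PDGFRB (-0.10 and -0.15) and S100A4 (0.87 and 1.68). With siRNA 2, 4 of the 12 were lower than the control and 8 higher. With siRNA 1, 5 were lower and 7 higher, and 1 was lower by over 2-fold. It was DCN, which encodes decorin (-1.37 and 0.19), with all 5 of its probe sets above the filter lower with siRNA 1. THY1 had -0.58 and 0.30, LUM -0.36 and 0.79, and FAP 0.35 and -0.61. The summed fibroblast signal was 162281 with siRNA 1 and 181318 with siRNA 2, against 168448 in the control. Epithelial markers summed to 312.5 and 369.3 against 379.9, with 3 of 7 above the filter. CDH1 and KRT14 were under it, SFTPC had -0.23 and -0.77, SFTPB 0.45 and -0.15, and EPCAM was over 2-fold lower with siRNA 1 (-1.68 and 0.31). Endothelial markers summed to 1540.3 and 2166.7 against 1360.0, mostly from TEK (0.03 and 0.70). PECAM1 had 1.46 and 0.11 and VWF 1.13 and 0.44, both dim, and CDH5 was under the floor on all arrays. The part of these marker differences in the values that follow was not tested. Of 4 measured leukocyte markers only CD79A passed the filter (-0.56 and -1.06).

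Over the 9 measured Polycomb genes, EZH2 and PHF19 were lower by 2-fold or more with either SETD8 siRNA, EPOP was higher with both, and JARID2 was higher with SETD8 siRNA 1. At that threshold SETD8 siRNA 1 had 2 of 9 genes lower, where 7.75% of all genes were, and 2 higher, where 5.48% of all genes were. With SETD8 siRNA 2, 2 were lower, against 6.65% of all genes, and 1 was higher, against 4.46%. Nothing is read from the counts of higher genes, because EPOP is 1 of them with each siRNA and entered the 9 only by being high there. The median log2 fold change of the 9, EPOP included, was -0.30 with either siRNA, against -0.02 and -0.01 over all genes tested. It is the value of EED with siRNA 1 and of CBX2 with siRNA 2, genes whose probe sets disagreed on the direction. Both comparisons use the same control array, so their likeness is not independent. The genes were listed with earlier results of these data known, so these counts and medians are a description and not a test. Apart from EPOP, EZH2 alone of the 9 went past the yardstick for its signal with both siRNAs, as 5.69% of all genes did with siRNA 1 and 4.07% with siRNA 2.

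**Figure D1:**
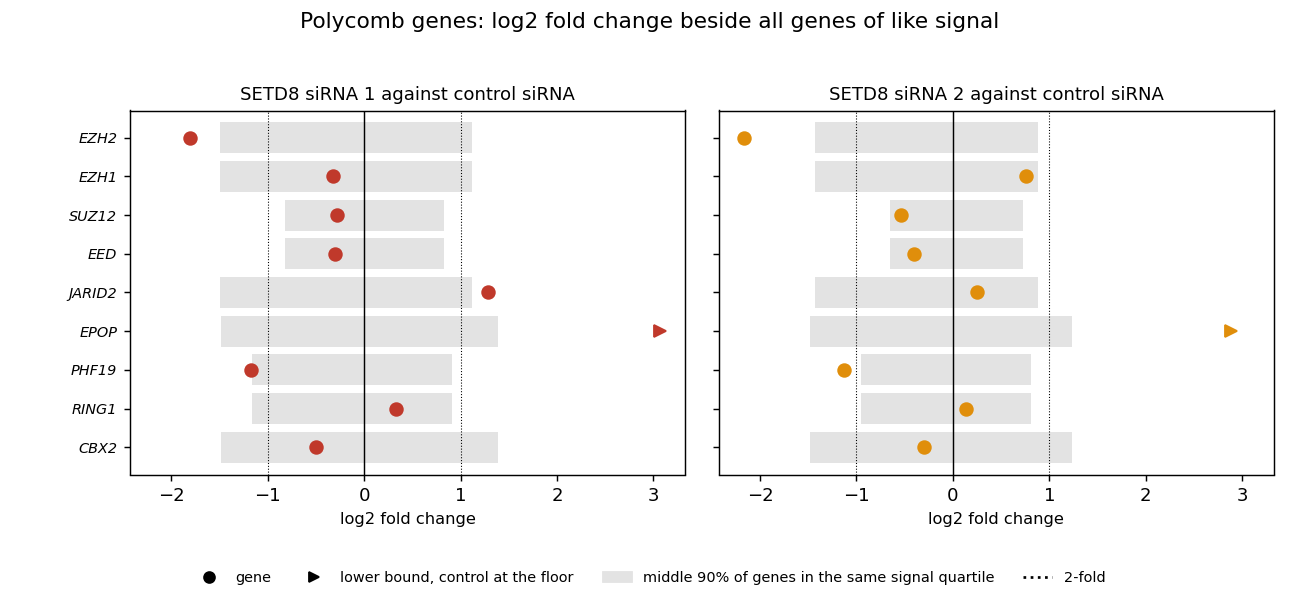
Log2 fold change of the 9 measured Polycomb genes with SETD8 siRNA 1 (left) and SETD8 siRNA 2 (right) against the control siRNA, 1 array each. Grey bars span the middle 90% of all genes in the same signal quartile and dotted lines mark 2-fold. Triangles mark values measured from the floor, because the control signal lay under it. EZH2 lies left of its bar in both panels at -1.81 and -2.17, and EPOP lies far right at 3.07 and 2.89. PHF19 also lies left of its bar in both panels at -1.18 and -1.13, narrowly so in the left one. JARID2 lies right of its bar in the left panel at 1.28. SUZ12, EED, RING1 and CBX2 lie inside their bars.

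Promoter windows are shown for EZH2, the lowest of the 10 against the control, for its paralog EZH1, for the core subunit SUZ12, and for PHF19, the cofactor that was lower. They were taken from RefSeq on GRCh38.p14, each with 250 bases before and 50 after the gene start, and 8 of the 10 genes were in that table, EPOP and CBX2 not being among them. Capitals mark matches on either strand to the E2F letters TTTCCCGC, TTTCGCGC, TTTGCCGC and TTTGGCGC or to TTTGAA, the core of the cell cycle homology region (CHR), 2 elements known from promoters of cell cycle genes. The EZH2 window (chr7:148884242-148884541, minus strand) has 1 E2F match, the EZH1 window (chr17:42744991-42745290, minus strand) 1, the SUZ12 window (chr17:31936757-31937056, plus strand) 1 and a separate CHR match, and the PHF19 window (chr9:120868862-120869161, minus strand) none.
EZH2: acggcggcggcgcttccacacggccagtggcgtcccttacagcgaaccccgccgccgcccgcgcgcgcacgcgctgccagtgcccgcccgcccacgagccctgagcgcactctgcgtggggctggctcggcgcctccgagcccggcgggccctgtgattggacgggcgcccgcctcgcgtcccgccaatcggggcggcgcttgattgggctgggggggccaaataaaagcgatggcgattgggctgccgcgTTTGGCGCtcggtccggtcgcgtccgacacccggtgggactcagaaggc
EZH1: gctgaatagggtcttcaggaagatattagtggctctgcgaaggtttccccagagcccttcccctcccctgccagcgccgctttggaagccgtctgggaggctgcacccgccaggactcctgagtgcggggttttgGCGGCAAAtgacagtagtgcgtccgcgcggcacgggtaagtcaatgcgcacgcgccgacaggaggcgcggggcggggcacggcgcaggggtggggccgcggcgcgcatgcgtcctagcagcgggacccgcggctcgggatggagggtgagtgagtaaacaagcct
SUZ12: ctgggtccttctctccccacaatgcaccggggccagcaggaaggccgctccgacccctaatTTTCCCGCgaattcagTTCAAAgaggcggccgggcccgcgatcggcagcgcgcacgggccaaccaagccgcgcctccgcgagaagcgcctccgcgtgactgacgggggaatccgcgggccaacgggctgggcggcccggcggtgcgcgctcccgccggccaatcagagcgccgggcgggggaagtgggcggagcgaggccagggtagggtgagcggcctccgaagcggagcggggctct
PHF19: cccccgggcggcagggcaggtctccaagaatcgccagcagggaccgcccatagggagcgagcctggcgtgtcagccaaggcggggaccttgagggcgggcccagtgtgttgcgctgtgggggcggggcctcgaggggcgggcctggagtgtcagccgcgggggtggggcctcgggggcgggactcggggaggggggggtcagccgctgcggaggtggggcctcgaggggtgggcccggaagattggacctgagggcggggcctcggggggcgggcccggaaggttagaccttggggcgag
In EZH2 the match TTTGGCGC begins at base 2 of the gene. Of the 8 windows, 3 held an E2F match and 1 a CHR match, where 3.31% and 15.2% of all 35116 promoter windows of that length did. The windows of the 4 genes shown were rich in G and C (67.0% to 76.0%), and the share over all promoters is not matched for that. A match is a run of letters and was not tested for binding.

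EZH2, the main catalytic subunit of PRC2, had the lowest log2 fold change of the 9 genes with each siRNA. Its signal was 328.3 with SETD8 siRNA 1 and 256.1 with SETD8 siRNA 2, against 1150.6 with the control siRNA. These were 28.5% and 22.3% of the control signal, or log2 fold changes of -1.81 and -2.17. In its signal quartile, 3.61% of genes were as low or lower with siRNA 1 and 2.08% with siRNA 2. EZH2 rests on 1 probe set, of the _s_at type that can match related transcripts, so no second probe set checks its size. Fewer cells that express a gene and less of its RNA per cell cannot be told apart in such bulk samples.

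EZH1, the paralog of EZH2 with weaker methyltransferase activity that is known from nondividing tissues, did not share its pattern. On its brightest probe set the signal was 289.9 with siRNA 1 and 612.0 with siRNA 2, against 361.9 in the control, so the siRNAs stood on opposite sides of the control. The other probe sets above the filter were lower with siRNA 1 (120.6, 72.7 and 45.1, against 158.9, 138.6 and 63.1 in the control). With siRNA 2 these read 130.9, 176.4 and 42.7, so the probe sets disagreed on the direction. Their 4 log2 fold changes averaged -0.53 ± 0.27 (SD, n = 4 probe sets) with siRNA 1 and 0.066 ± 0.60 with siRNA 2. The difference of siRNA 2 minus siRNA 1 was 1.08 on the brightest probe set, and 6.18% of all genes were at least 2-fold higher with siRNA 2 than with siRNA 1, EZH1 being 1 of the 9.

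SUZ12, the scaffold of PRC2, had a signal of 2842.7 with siRNA 1 and 2369.4 with siRNA 2, against 3448.1 in the control (-0.28 and -0.54). A probe set shared with the pseudogene SUZ12P1 read 460.1 and 420.3 against 602.9 (-0.39 and -0.52). The dim probe sets of SUZ12 read 31.6 and 24.4 against 25.5, and 1.4 and 19.1 against 43.3, and averaging them in gave SUZ12 -0.62 and -0.60. EED, the subunit that binds methylated H3 lysine 27, read 2158.7 and 2015.3 against 2658.6 (-0.30 and -0.40), while its only other probe set was under the filter and higher (15.9 and 46.5 against 12.7). With both averaged, EED stood at 0.012 and 0.74. Both core subunits were thus lower than the control on their bright probe sets, by less than 2-fold and by less than the yardstick of 1.14 for their signal.

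Among the PRC2 cofactors, PHF19, a Polycomb-like protein with a Tudor domain that binds H3 methylated at lysine 36, was lower on all 3 of its probe sets. The brightest gave 939.7 with siRNA 1 and 972.6 with siRNA 2, against 2125.2 in the control. The other probe sets gave 904.3 and 936.0 against 1891.8, and 151.4 and 164.4 against 394.5. The 3 log2 fold changes averaged -1.21 ± 0.16 (SD, n = 3 probe sets) with siRNA 1 and -1.14 ± 0.12 with siRNA 2, so the probe sets lay close together. The change on the brightest probe set (-1.18 and -1.13) was within the yardstick of 1.25 for its signal, and 4.91% and 3.80% of genes in its quartile were as low or lower.

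EPOP, a cofactor that links PRC2 to elongin B and C, was near background in the control and above the filter on both SETD8 siRNA arrays. Its single probe set read 98.2 with siRNA 1 and 86.6 with siRNA 2, against 9.6 in the control. The control value lay under the floor, so the signal was at least 8.39-fold and 7.40-fold higher, bounds that depend on the floor. EPOP passed the filter only through the arrays on which it was high, so it is not ranked among the genes tested.

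JARID2, a cofactor that recruits PRC2 and contacts nucleosomes carrying the PRC1 mark, differed between the siRNAs. Its brighter probe sets gave 829.1 and 767.1 with siRNA 1, 405.6 and 370.3 with siRNA 2, and 340.7 and 371.7 in the control. With siRNA 1 both were over 2-fold higher (1.28 and 1.05 for the probe sets), and with siRNA 2 they lay at 0.25 and -0.01. Its remaining probe set was dim (48.7 and 20.3 against 39.8), and with all 3 averaged JARID2 had 0.87 and -0.24, under 2-fold with both. The difference of siRNA 2 minus siRNA 1 was -1.03 on the probe set used, where 6.38% of all genes were at least 2-fold lower with siRNA 2 than with siRNA 1.

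The PRC1 subunits stayed within 2-fold on the probe sets used. The probe set shared by BMI1, the partner that activates the RING1 ligases, and COMMD3-BMI1 read 3326.8 with siRNA 1 and 3804.7 with siRNA 2, against 3412.3 in the control (-0.04 and 0.16). RING1, a ubiquitin ligase for histone H2A, read 1271.8 and 1112.5 against 1012.7 (0.33 and 0.14), and its second probe set 793.5 and 775.9 against 806.4 (-0.02 and -0.06). CBX2, a chromodomain subunit that compacts chromatin, read 82.1 and 94.3 against 116.4 (-0.50 and -0.30). Its next probe sets gave 71.2 and 41.1 against 119.0 (-0.74 and -1.53, past 2-fold with siRNA 2), and 53.3 and 53.5 against 39.9 (0.42 and 0.42). The directions thus disagreed at signals close to the filter, and the dimmest CBX2 probe set was under the floor on all 3 arrays.

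**Figure D2:**
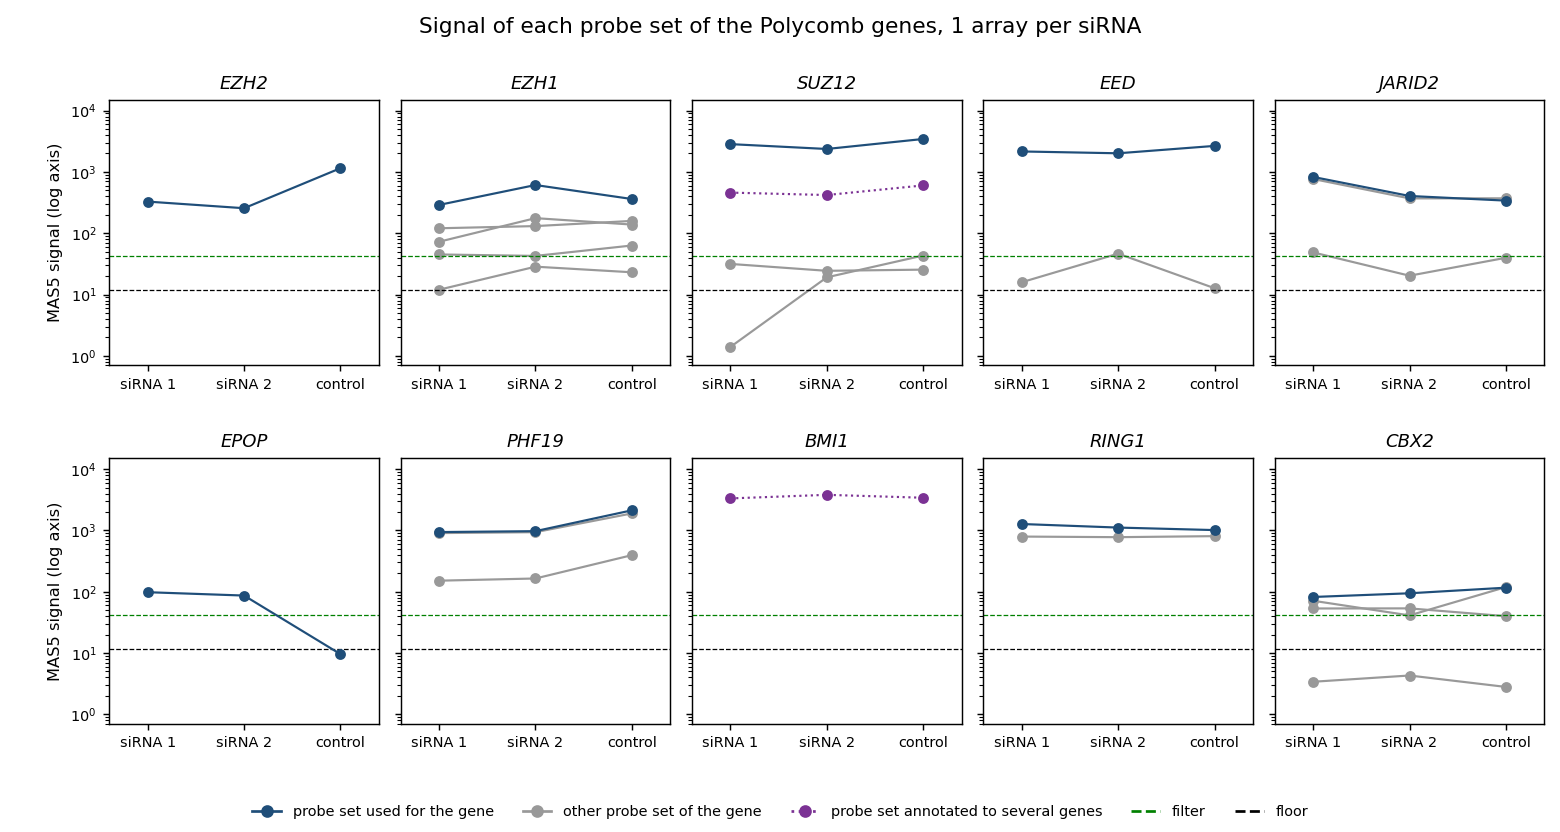
MAS5 signal (log axis) of every probe set of the 10 Polycomb genes on the SETD8 siRNA 1, SETD8 siRNA 2 and control arrays. Each point is 1 array, lines join the points of 1 probe set, and dashed lines mark the filter of 42.0 and the floor of 11.7. The 3 PHF19 probe sets run in parallel, whereas those of EZH1 and CBX2 cross.

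Because EZH2 is known to follow cell division, 30 cell division genes were set beside it. The 30 were listed with earlier results of these data known, so their counts are a description and not a test. With SETD8 siRNA 1, 29 of 30 were at least 2-fold lower, where 7.75% of all genes were. With SETD8 siRNA 2 all 30 were, against 6.65% of all genes. The median log2 fold changes were -2.53 and -2.32. With probe sets of the types _s_at, _x_at and _a_at left out, GINS2 had -0.42 and -0.18, under 2-fold with both. The summed signal of the 30 genes was 24524 with siRNA 1 and 25889 with siRNA 2, against 113708 in the control. Examples are the origin licensing factor CDT1 (-4.42 and -2.65, or -2.43 and -1.70 over its 2 probe sets), the mitotic kinesin KIF20A (-2.98 and -3.96), the checkpoint kinase BUB1B (-3.64 and -3.28) and the centromere protein CENPF (-3.42 and -3.28). Their part in the EZH2 and PHF19 values was not tested.

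Among 3477 genes within 1 log2 unit of the mean signal of EZH2, the 5 whose log2 fold changes lay nearest to it by Euclidean distance over the pair of comparisons were GPSM2, NAV2, RUNX1T1, PARPBP and SLIT2. GPSM2, a spindle orientation protein, had -1.83 and -2.19 at a distance of 0.025, and NAV2 had -1.87 and -2.11. RUNX1T1, a transcriptional corepressor, had -1.71 and -2.23, and PARPBP had -1.92 and -2.32. SLIT2, a secreted guidance ligand, had -1.63 and -2.23 at a distance of 0.193. The likeness covers 3 arrays with a shared control and is a description.

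Of 34 other PRC2 and PRC1 genes, 30 passed the filter, and on the probe sets used none of them was as low as EZH2 with either siRNA. An exception on another probe set was PCGF1, a RING partner in a variant PRC1, which had 0.17 and 0.19 on the probe set used and -2.02 and -0.10 on its other one (32.2 and 121.9 against 130.6). With SETD8 siRNA 1, 2 of them were at least 2-fold lower (AUTS2 and PCGF5), a share near the 7.75% of all genes, and none was higher, against 5.48%. With SETD8 siRNA 2, 1 was lower (AUTS2), against 6.65% of all genes, and none was higher, against 4.46%. With probe sets averaged PCGF5 stood at -0.66 with siRNA 1 and AUTS2 was no longer above the filter. The medians were 0.05 and -0.02.

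Among PRC2 genes outside the 10, the histone-binding subunits RBBP4 (-0.27 and -0.66) and RBBP7 (-0.42 and -0.57) were lower with both siRNAs on the probe sets used. For RBBP4 the value with siRNA 1 became 0.052 with probe sets averaged. PHF1, a Polycomb-like paralog of PHF19, had 0.74 and 0.17, the second being -0.04 with probe sets averaged, and LCOR had 0.28 and 0.27. MTF2, another Polycomb-like protein, differed by siRNA. Its signal was 2067.3 with siRNA 1 and 674.7 with siRNA 2, against 1137.6 in the control. All 5 MTF2 probe sets were higher with siRNA 1 and lower with siRNA 2, at 0.50 ± 0.23 and -0.80 ± 0.27 (mean log2 fold change, SD over 5 probe sets). On the brighter of its probe sets outside the _s_at type MTF2 had -1.27 with siRNA 2, past 2-fold. The 3 Polycomb-like genes thus had unlike values, PHF19 being lower with both, PHF1 higher with siRNA 1, and MTF2 on opposite sides of the control.

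Of 11 other canonical PRC1 genes, 8 passed the filter and none reached 2-fold. CBX7, a chromodomain subunit known to repress the INK4 locus, read 139.3 with siRNA 1 and 233.4 with siRNA 2, against 118.2 in the control (0.24 and 0.98), and passed 2-fold with siRNA 2 after median scaling or quantile normalization. SCMH1 had -0.88 and -0.67, SCML2 -0.03 and -0.43, and PHC1 -0.04 and -0.42.

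All 16 variant PRC1 genes passed the filter. AUTS2, which joins a variant PRC1 in neurons, was lower with both siRNAs at 177.7 and 160.0, against 454.3 in the control (-1.35 and -1.51), on the only one of its 3 probe sets above the filter. PCGF5, a RING partner of the same complex, read 683.4 with siRNA 1 and 1572.2 with siRNA 2, against 1466.5 in the control (-1.10 and 0.10), with 3 of 4 probe sets lower with siRNA 1. KDM2B, which brings a variant PRC1 to CpG islands, had -0.62 and -0.67. Its partner BCOR had 0.67 and 0.60, and MGA had -0.46 and -0.27.

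**Figure D3:**
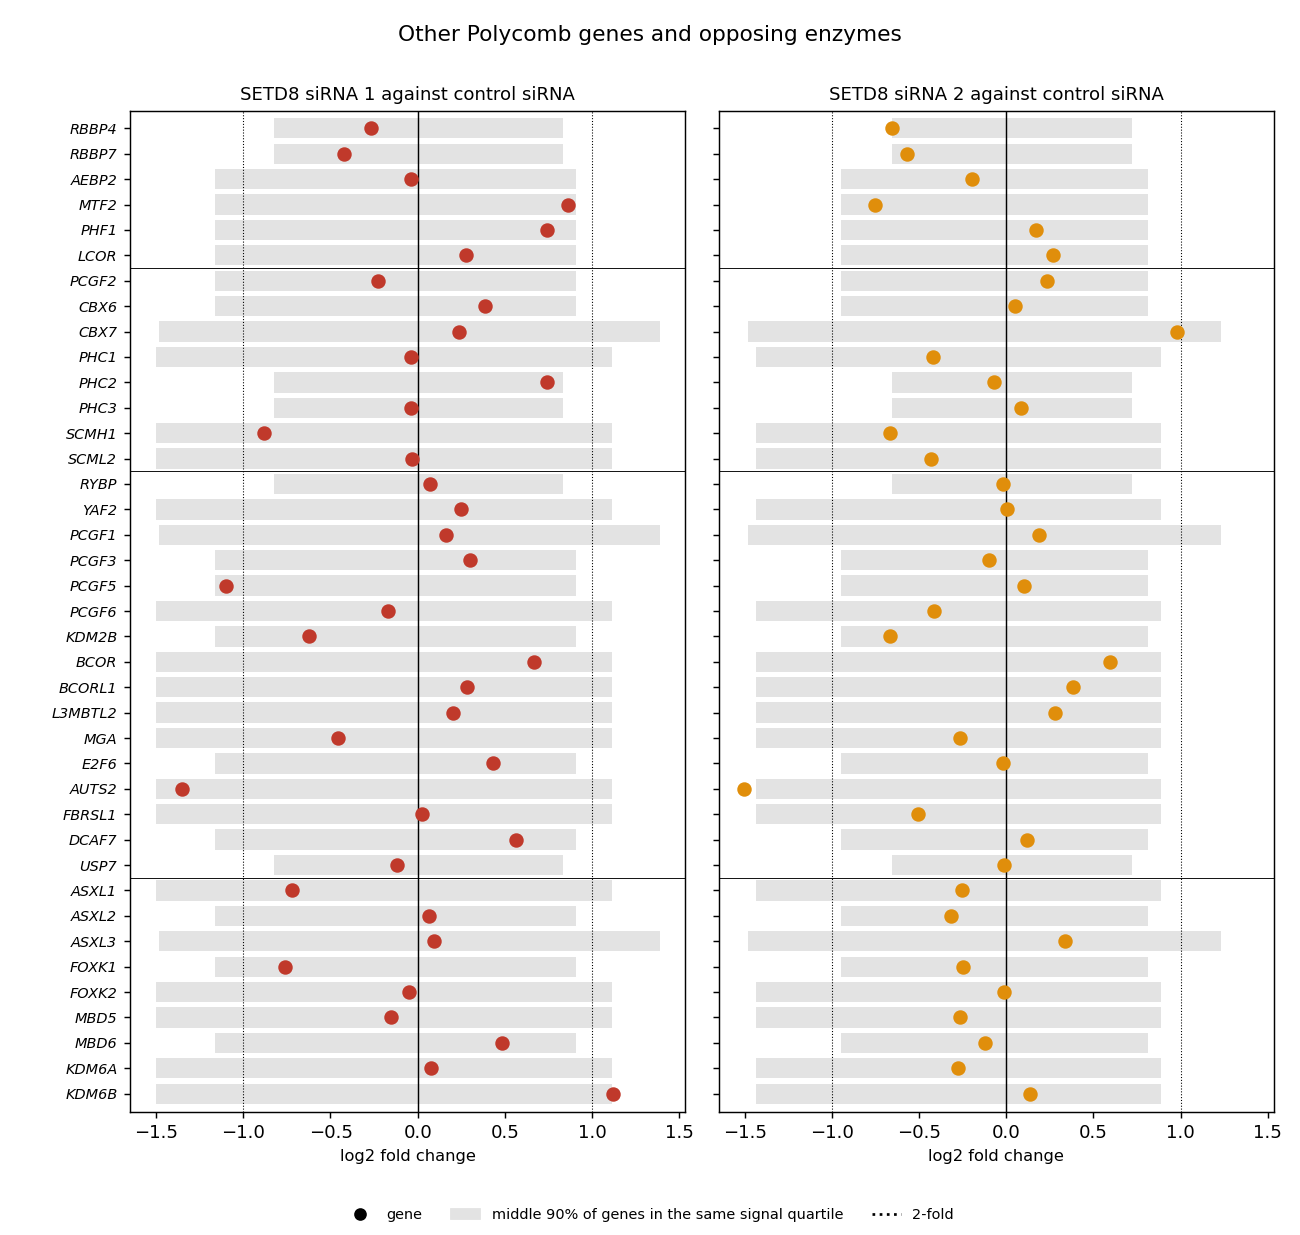
Log2 fold change with SETD8 siRNA 1 (left) and SETD8 siRNA 2 (right) against the control siRNA for other PRC2, canonical PRC1 and variant PRC1 genes and opposing enzymes, in 4 blocks from top to bottom. Grey bars span the middle 90% of all genes in the same signal quartile and dotted lines mark 2-fold. AUTS2 lies left of the 2-fold line in both panels, and PCGF5 and KDM6B pass it in the left panel.

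Of 9 measured genes that oppose Polycomb marks, H2A deubiquitinase subunits and H3 lysine 27 demethylases, none was at least 2-fold lower with either siRNA. Over all genes, 7.75% and 6.65% were. With siRNA 1, 1 of the 9 was at least 2-fold higher, against 5.48% of all genes, and with siRNA 2 none was, against 4.46%. Nothing is read from such counts in 9 genes. The higher gene was KDM6B, an H3 lysine 27 demethylase known to act on the INK4 locus. It read 825.3 with siRNA 1 and 416.9 with siRNA 2, against 379.3 in the control (1.12 and 0.14). All 5 KDM6B probe sets were higher with siRNA 1 (mean 1.00 ± 0.56, SD over probe sets), and 4 of 5 were lower with siRNA 2 (-0.12 ± 0.18). KDM6A, the related demethylase, had 0.08 and -0.28. Among the H2A deubiquitinase genes, FOXK1 had -0.76 and -0.25, ASXL1 -0.72 and -0.25, and ASXL3 0.10 and 0.34. BAP1, listed with these genes, had no probe set and was not measured.

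CDKN2A, which encodes p16 and ARF, was over 2-fold higher with both SETD8 siRNAs. Its probe set read 1040.0 with siRNA 1 and 1114.8 with siRNA 2, against 432.5 in the control (1.27 and 1.37), just past the yardstick of 1.25. A second bright probe set gave 1121.3 and 909.7 against 484.8 (1.21 and 0.91), and another lay near the floor (3.9 and 12.4 against 3.1). Of the genes in its signal quartile, 2.80% and 1.37% were as high or higher. With the dim probe set averaged in, the values were 0.83 and 0.79. The annotation does not say which probe set reads p16 and which ARF.

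Its neighbours differed by siRNA. CDKN2B, which encodes p15, read 7373.0 with siRNA 1 and 1230.0 with siRNA 2, against 742.7 in the control (3.31 and 0.73), and the second value became -0.16 with probe sets averaged. All 5 MTAP probe sets above the filter were higher with siRNA 1 (0.58 ± 0.30, mean and SD over probe sets) and lower with siRNA 2 (-0.51 ± 0.25). CDKN2B-AS1, the antisense RNA known to bind Polycomb proteins, was under the floor on all 3 arrays (3.4 and 1.3 against 1.0).

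**Figure D4:**
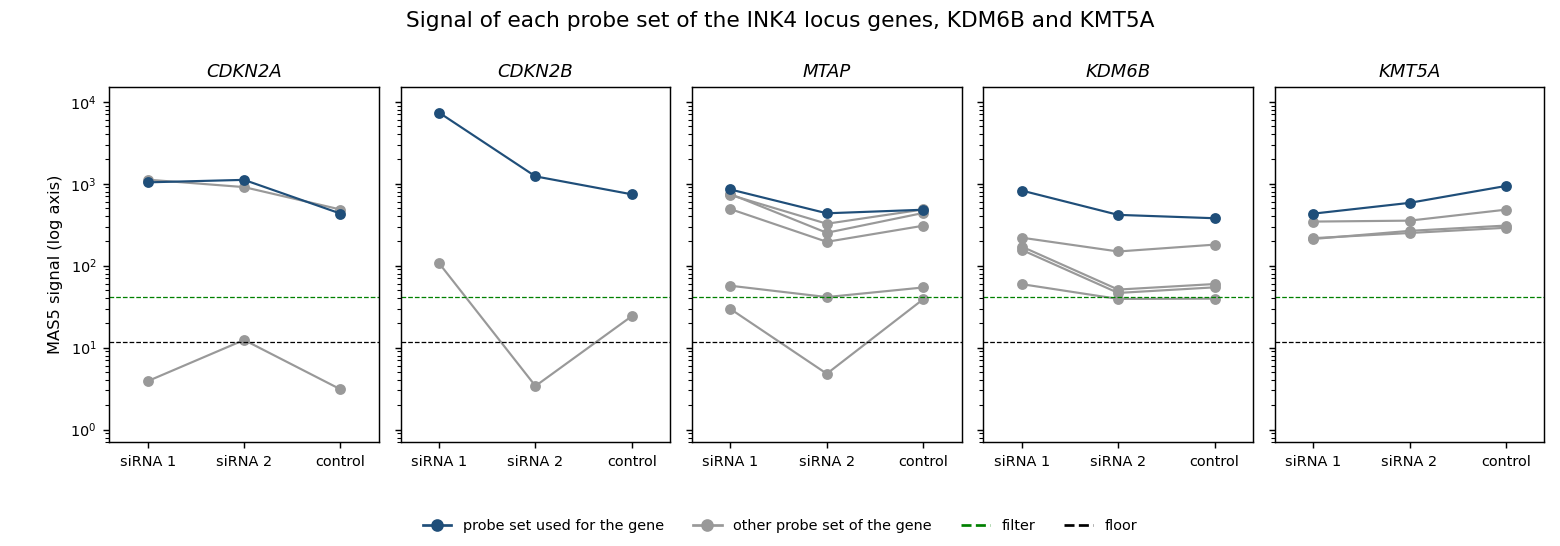
MAS5 signal (log axis) of every probe set of CDKN2A, CDKN2B, MTAP, KDM6B and KMT5A on the SETD8 siRNA 1, SETD8 siRNA 2 and control arrays. Each point is 1 array, lines join 1 probe set, and dashed lines mark the filter and the floor. The bright CDKN2A probe sets are higher than the control with both siRNAs, whereas CDKN2B, KDM6B and the MTAP probe sets above the filter are highest with siRNA 1.

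Set beside CDKN2A, the genes known to repress it did not move in 1 direction. EZH2 was lower with both siRNAs, SUZ12 and EED slightly lower, the BMI1 probe set within 0.16 of the control, and CBX7 higher. Of the activators of the locus outside Polycomb, JUNB read 434.1 and 341.5 against 182.8 (1.25 and 0.90), E2F1 had -0.63 and -0.36 (-0.94 and -1.15 on its other probe set, past 2-fold with siRNA 2), SMARCB1 -0.14 and -0.45 (-0.79 and -0.99 with probe sets averaged), and DMTF1 0.25 and 0.24. Of the repressors outside Polycomb, ID1 read 1764.1 with siRNA 1 and 9883.9 with siRNA 2, against 1649.8 in the control (0.10 and 2.58), TBX2 had 0.36 and 0.65, and ZBTB7A 0.14 and 0.12. Over the 11 activators and repressors, 2 were at least 2-fold higher with siRNA 1 (JUNB and TBX3), 1 with siRNA 2 (ID1), and none was lower with either on the probe sets used. Over all genes 5.48% and 4.46% were higher and 7.75% and 6.65% lower, so counts this small in 11 genes are not set apart from them. The arrays measure neither H3 lysine 27 methylation nor Polycomb binding, so a link between EZH2 and CDKN2A was not tested.

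Most developmental regulators known as Polycomb targets in human embryonic stem cells were under the filter. Of 51 genes, 46 had a probe set of their own and 12 passed. None of the 12 reached 2-fold with either siRNA, where 7.75% and 6.65% of all genes were lower and 5.48% and 4.46% higher, and nothing is read from 0 of so few genes. Their medians were 0.19 and 0.08, with a range of -0.84 to 0.58 for siRNA 1 and of -0.79 to 0.70 for siRNA 2. The homeobox gene MEIS2 had -0.84 and -0.79, SOX9 0.58 and 0.70, GATA2 0.30 and 0.60, and MSX1 0.53 and 0.25. The other 34 measured genes of the list were under the filter, where changes of low signals cannot be told from background.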

How the data were processed

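Each culture gave 250 ng of total RNA for biotinylated cRNA, read on a 1-colour Affymetrix array, according to the labels. The authors deposited a linear intensity per probe set from MAS5, a tool named in the submitters' processing notes, with its version not given in the sources used here. Detection calls were not used. After trimming 2% of values from either end the mean signal was 497 on every array, so nothing was rescaled, and a shift common to all genes would be hidden.

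Of 54613 probe sets, 41091 carried 1 gene symbol in the platform annotation, 1801 carried several symbols and entered no count, and 11721 were unlisted. For 41037 the symbol was brought up to date with RefSeq on GRCh38.p14. The floor is the 25th percentile of all values, and the filter is the median of the probe set means (5.39 on the log2 scale). Genes were counted at 2-fold. With 1 array per siRNA no test was possible, and the counting was tested on simulated data.

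The 10 genes and all other lists were chosen with earlier results of these data known. The rule named the 10 genes, KMT5A, the INK4 locus, up to 4 genes per list with the largest change of the same sign with both siRNAs, and the 5 genes nearest to EZH2. MTF2, PCGF1, PCGF5, KDM6A, DCN, THY1, LUM, FAP, EPCAM, SFTPB, CDH1, KRT14, CDH5, TBX3, ETS2, GINS2 and ZIC1 were named after their values were seen. So were EN1, BARX1, SOX17, LHX2, NEUROG1, TBX15 and MYOD1. The alternatives tried were scaling to the median, quantile normalization, adding 16 to each signal rather than using the floor, removing the filter or raising it to the 75th percentile, averaging a gene's probe sets, omitting probe sets of the types _s_at, _x_at and _a_at, and calling genes at 1.5-fold or 3-fold. The software was Python 3.11.15, numpy 2.4.6, pandas 2.3.3 and matplotlib 3.10.9.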

Additional observations from a re-analysis of the deposited data

Results flagged for a closer look

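EZH1 had opposite directions with the SETD8 siRNAs on its brightest probe set, lower with siRNA 1 (-0.32) and higher with siRNA 2 (0.76), and the difference of siRNA 2 minus siRNA 1 was 1.08 on the log2 scale. That difference was not tested, since each siRNA has 1 array, and it is under the yardstick of 1.72 for genes of its signal.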

How the results depend on the processing

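Over the alternatives, EZH2 kept values between -1.81 and -1.72 with SETD8 siRNA 1 and between -2.17 and -2.10 with siRNA 2, PHF19 between -1.21 and -1.15 and between -1.14 and -1.09, and EPOP between 2.16 and 3.12 and between 2.00 and 2.91, the lowest with the pseudocount. Without the probe set types that can be shared, EZH2, EED and JARID2 gave no value, because their bright probe sets have such suffixes. Of 18 Polycomb gene values, 3 changed sign, all with probe sets averaged: EED at 0.01 and 0.74, and JARID2 with siRNA 2 at -0.24. JARID2 with siRNA 1 then had 0.87, under 2-fold.

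The counts of Polycomb genes were 2 lower and 2 higher with siRNA 1 and 2 lower and 1 higher with siRNA 2. With siRNA 1 the count of lower genes became 1 without shared probe sets or at 3-fold, and that of higher genes 1 with the 75th percentile filter, averaged or without shared probe sets, or at 3-fold. With siRNA 2 the lower count became 1 without shared probe sets or at 3-fold, and the higher count 0 with the 75th percentile filter, which drops EPOP, and 2 at 1.5-fold. Between the siRNAs, 1 gene was lower with siRNA 2 (0 without shared probe sets or at 3-fold) and 1 higher (0 with probe sets averaged or at 3-fold).

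Of the other Polycomb genes, the 2 lower with siRNA 1 became 3 without shared probe sets, PCGF1 added, 1 with the 75th percentile filter, 0 averaged or at 3-fold and 4 at 1.5-fold, where 4 were higher. The 1 lower with siRNA 2 became 0 with the 75th percentile filter, averaged or at 3-fold, 2 without shared probe sets and 5 at 1.5-fold, and the 0 higher became 1 with median scaling or quantile normalization and 2 at 1.5-fold. Of the CDKN2A regulators with siRNA 1, 1 was lower at 1.5-fold, and the 2 higher became 1 with the 75th percentile filter or averaged and 0 at 3-fold. With siRNA 2, 1 was lower and 0 higher without shared probe sets, and 3 were higher at 1.5-fold. The developmental targets had 3 lower and 3 higher with siRNA 1 and 6 lower and 2 higher with siRNA 2 without the filter, and at 1.5-fold 1 lower with each siRNA and 2 higher with siRNA 2.

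Over all genes, 954 were lower and 675 higher with siRNA 1 and 818 lower and 549 higher with siRNA 2. In that order these were 1698, 1543, 1614 and 1317 without the filter, 460, 313, 348 and 217 with the 75th percentile filter, 2023, 1569, 1814 and 1428 at 1.5-fold, and 394, 305, 361 and 174 at 3-fold. The leukocyte marker CD79A with siRNA 2 turned to 0.092 with probe sets averaged. Filters and thresholds change these counts by construction. The cause of the other shifts was not tested. No paired analysis was possible because each siRNA has 1 array. Signals near the floor, such as EPOP in the control, limit what can be measured, since no detection calls were used.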

Other observations

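Outside the Polycomb genes, 2 regulators of the INK4 locus resembled JARID2 and KDM6B in being higher with SETD8 siRNA 1 and not with siRNA 2. TBX3, a T-box repressor of the locus, read 7857.1 with siRNA 1 and 2894.8 with siRNA 2, against 3606.0 in the control, and its 3 probe sets above the filter averaged 1.00 ± 0.22 and -0.36 ± 0.08 (log2 fold change, SD over probe sets). With its dim probe sets averaged in, TBX3 had 0.40 with siRNA 1, under 2-fold. ETS2, an activator of the p16 gene, read 4075.0 and 1901.8 against 2229.8 (0.87 and -0.23), and 0.41 with siRNA 1 with its probe sets averaged.

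Among the developmental targets under the filter, the neural transcription factor gene ZIC1 read 10.2 with siRNA 1 and 106.9 with siRNA 2, against 1.2 in the control, so it was above the floor on the siRNA 2 array alone. On the probe sets used, this also held for EN1 (0.3 and 22.8 against 1.0) and BARX1 (8.0 and 16.6 against 3.0). SOX17, LHX2, NEUROG1, TBX15 and MYOD1 were above the floor on the siRNA 1 array alone.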
